A study of Mus musculus with 9 samples.

Results

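The 10 genes described here encode heat shock chaperones: Hspa1a, Hspa1b, Hspa8 and Hsph1 of the Hsp70 system, the J-domain proteins Dnajb1 and Dnaja1, the cytosolic Hsp90 gene Hsp90aa1, the small heat shock protein Hspb1, and the mitochondrial chaperonin pair Hspd1 and Hspe1. They are 10 of the 54532 genes counted in kidney, and they were chosen by name because several of them were high and uneven among the libraries of SN-011-treated mice. No threshold was used. The levels in SN-011 kidneys are therefore a description with no test, whereas the comparison of wild type with Trex1-/- mice given PBS leaves out the SN-011 libraries and was tested. That test is not wholly free of the choice, since a gene counts as high in SN-011 relative to the other groups.

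PolyA-selected RNA was sequenced from kidneys of C57BL/6J mice in 3 groups of 3 libraries. These were wild type (WT), for which the labels name no injection; Trex1-/- mice given PBS, to which Tween 80 was added per the study's methods, for 2 weeks; and Trex1-/- mice given SN-011, an antagonist of the DNA-sensing adaptor STING, for 2 weeks. The knockout was whole-body, both treated groups carried it, treatment of the month-old animals was by daily intraperitoneal injection, and the age and sex of each sequenced mouse were not given in the sources used here. For the wild-type mice the methods give a range of ages at purchase, from about a month upward. TREX1 degrades cytosolic DNA, and its loss drives interferon production through cGAS and STING. The study asked what blocking STING does to gene expression in the kidneys of these lupus-like mice. The labels do not say that replicates of a group were separate animals, so p-values measure the spread between these libraries.

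Heat shock chaperones bind unfolded or partly folded proteins. Hsp70 proteins hold and release short hydrophobic stretches in a cycle driven by ATP, J-domain proteins deliver clients and start ATP hydrolysis, and nucleotide exchange factors such as Hsph1 reset the cycle; Hsp90 then acts late on kinases and steroid receptors, while the Hspd1 and Hspe1 proteins form the folding chamber of mitochondria. Hspa8 is the constitutive cytosolic Hsp70, and Hspa1a and Hspa1b are its inducible relatives, which the transcription factor HSF1 switches on through heat shock elements. In the kidney, the inner medulla with its high and variable salt and urea content is known for strong expression of Hsp70 and small heat shock proteins.

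Promoter stretches with the letters of heat shock elements are shown first because the choice did not use them and most of the members with a promoter at hand hold them. Promoters from 250 bases before to 50 bases after a RefSeq start site (GRCm38.p6) were at hand for 8 of the 10 members, while Hspa8 and Hsp90aa1 had no entry. They were searched for a pair of heat shock units facing each other, GAANNTTC or TTCNNGAA, where N is any base; each motif reads the same on the opposite strand. At least 1 promoter of 7 of the 8 genes held a pair, all but Dnajb1, against 17.0% of 27025 genes with a promoter. A run of 3 alternating units, which contains 2 overlapping pairs, was found for 3 of the 8 (Hsph1, Hspd1 and Hspe1), against 0.662% of all genes. Counted over single promoters, 15.1% of 32851 held a pair and 0.603% held 3 units. In the stretches below, read 5′ to 3′ on the strand of the gene with positions counted from the start site, capitals mark the units.
Hspa1a, -130 to -71, chr17:34972227-34972286, minus strand: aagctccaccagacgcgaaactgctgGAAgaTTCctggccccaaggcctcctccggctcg
Hspa1b, -130 to -71, chr17:34959309-34959368, minus strand: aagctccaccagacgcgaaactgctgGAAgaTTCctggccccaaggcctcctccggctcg
Hspb1, -130 to -81, chr5:135887789-135887838, plus strand: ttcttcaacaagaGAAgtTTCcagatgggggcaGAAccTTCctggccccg
Hspe1, -95 to -66, chr1:55088053-55088082, plus strand: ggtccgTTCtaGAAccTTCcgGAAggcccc
Dnaja1, -134 to -105, chr4:40722334-40722363, plus strand: aaagcctctaGAAaaTTCtacgaggctcgg
Hsph1, 20 to 49, chr5:149636288-149636317, minus strand: gagtaaaatgctgcagaTTCtgGAAagTTC
The Hspa1a and Hspa1b stretches were the same in all 60 bases, and 247 of the 250 bases upstream of both genes matched. The Hspe1 stretch lies in an annotated exon of Hspd1, which is read in the other direction. It lies upstream of 1 of the 2 Hspd1 start sites, at 55087932, whereas the promoter of the other, at 55088243, held no pair. The Dnaja1 and Hsph1 stretches lie in exons of their own genes. A match describes these letters and was not tested as a binding site.

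The 9 libraries held 16118813 to 21928965 counts. Trex1 had 0 counts in every library, wild type included. Its exons lie within those of Atrip on the same strand, so that it does not check the genotype labels. Markers of proximal tubule, loop of Henle, collecting duct and podocytes were detected in every library. Reads of Y-linked genes were present in WT replicate 3, all 3 PBS libraries and SN-011 replicate 2, and were at or near 0 in WT replicates 1 and 2 and SN-011 replicates 1 and 3, where Xist was 411.7 to 497.9 CPM (counts on the usual per-million basis after TMM scaling). Therefore wild type and PBS differ in this respect as well as in genotype, and SN-011 and PBS differ in it as well as in treatment. SN-011 replicate 2 stood apart for the chaperones, and group ratios, medians and correlations of the members that rest on it are given with and without it. Differences of other single genes include it unless stated.

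Levels differed widely among the members in wild-type kidney. Per length (RPKM, CPM per kilobase of exon), the WT mean was 444 ± 43.3 (SD, n = 3, as in all means below) for Hspa8, 197 ± 25.0 for Hspd1, 111 ± 6.95 for Hsp90aa1 and 82.4 ± 10.2 for Hspe1. Hspb1 at 28.7 ± 1.58, Dnaja1 at 28.5 ± 0.502 and Hspa1b at 26.6 ± 2.44 RPKM overlapped among their libraries and cannot be ranked. Hsph1 at 22.6 ± 1.52, Dnajb1 at 16.2 ± 2.01 and Hspa1a at 11.8 ± 1.77 RPKM followed, without overlap between neighbours. These values divide uniquely mapped counts by all exonic bases. Of the 150-base windows of a transcript, the share that also occurs in another gene was 46.0% for Hspa1a, 40.5% for Hspa1b, 39.1% for Hspb1, 28.5% for Hsp90aa1, 23.0% for Hspa8, 16.1% for Hspd1, 13.4% for Dnaja1, 6.64% for Hspe1 and 0% for Hsph1 and Dnajb1. The level of a gene with a high share may be understated, so that the order of Hspa1a and Dnajb1, and of the genes near Hspb1 and Hspa1b, is uncertain. In SN-011 replicate 2, Hspa1b reached 196 RPKM, the fourth highest of the 10 behind Hspa8 at 820, Hspd1 at 326 and Hsp90aa1 at 266, and Hspa1a at 90.2 RPKM was sixth, behind Hspe1 at 136. Together the members took 0.346% to 0.38% of all counts in WT, 0.282% to 0.324% in PBS, and 0.477%, 0.725% and 0.384% in SN-011 replicates 1, 2 and 3.

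Hspa1a and Hspa1b are single-exon neighbours on chromosome 17 (34969190 to 34972156 and 34956436 to 34959238, GRCm38, both on the minus strand) that encode nearly the same inducible Hsp70. Hspa1a was at 38.9, 36.8 and 28.9 CPM in WT replicates 1, 2 and 3, at 23.8, 23.2 and 21.7 CPM in PBS, and at 91.8, 268 and 39.6 CPM in SN-011. Hspa1b was at 82.1, 73.0 and 68.7 CPM in WT, 53.6, 49.4 and 48.9 CPM in PBS, and 278, 549 and 94.5 CPM in SN-011. For both genes all 3 PBS libraries lay below all 3 WT libraries, and all 3 SN-011 libraries lay above both, with replicate 2 far above the rest and replicate 3 nearest to WT. The SN-011 mean was 5.81 times the PBS mean for Hspa1a and 6.06 times for Hspa1b; without replicate 2 these ratios were 2.87 and 3.68. The genes share 1074 of their 150-base windows with each other, which is 38.1% of those of Hspa1a and 40.5% of those of Hspa1b, so that the split of reads between them is uncertain. Hspa1a held 24.9% to 33.5% of the summed counts of the pair across the 9 libraries. An antisense gene, Gm20481, covers 564 of the 2967 exonic bases of Hspa1a.

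**Figure D1:**
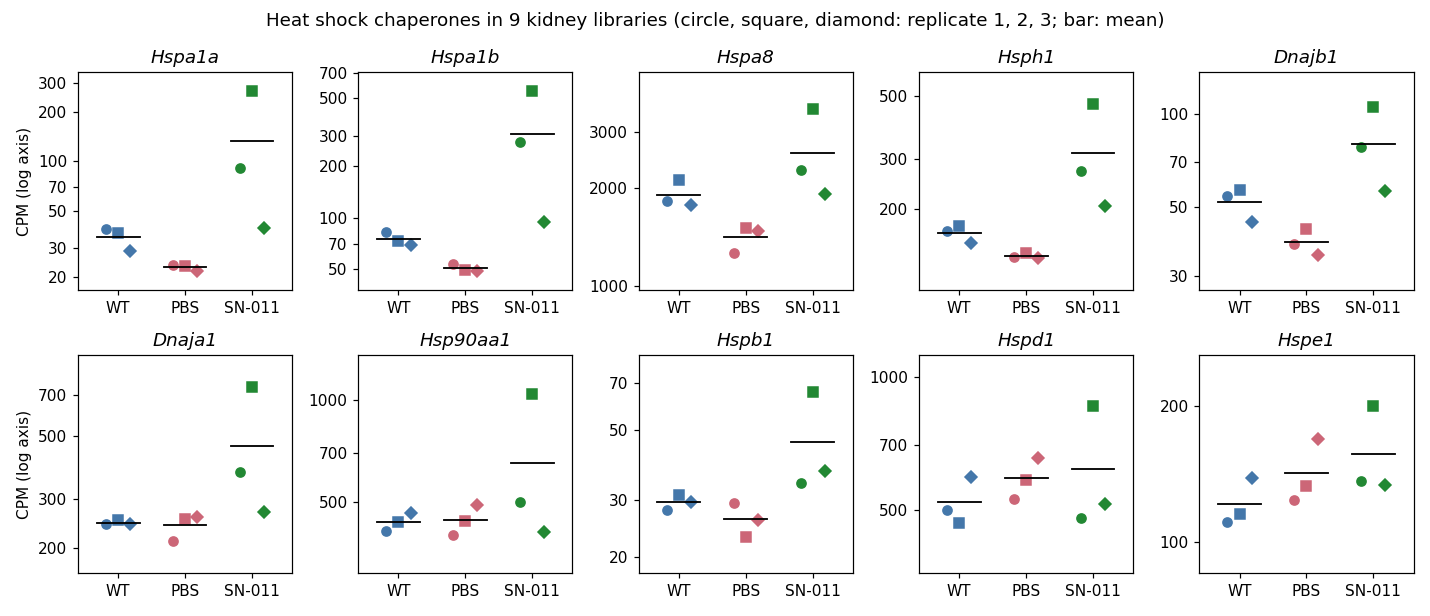
CPM of each member (vertical log axis, its own range per panel) in the 3 WT, 3 PBS and 3 SN-011 kidney libraries; circles, squares and diamonds are replicates 1, 2 and 3 and bars are group means. SN-011 replicate 2 is the highest of the 9 libraries for all 10 genes, and the PBS libraries of Hspa1a, between 21.7 and 23.8 CPM, sit below the WT libraries, between 28.9 and 38.9 CPM.

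Hspa8 (chromosome 9, 40800984 to 40810087, plus strand), the constitutive Hsp70 that also serves protein uptake into lysosomes and removes clathrin coats, was at 1831, 2124 and 1778 CPM in WT, 1261, 1515 and 1481 CPM in PBS, and 2276, 3528 and 1919 CPM in SN-011. Its nucleotide exchange factor Hsph1 (chromosome 5, 149614287 to 149636376, minus strand), also called Hsp110, was at 168, 174 and 152 CPM in WT, 135, 140.3 and 134 CPM in PBS, and 271, 468 and 204 CPM in SN-011. Both had every PBS library below WT and every SN-011 library above PBS, but only Hsph1 had all SN-011 libraries above WT, since SN-011 replicate 3 of Hspa8 lay within the WT range. The SN-011 mean was 1.81 times the PBS mean for Hspa8 (1.48 without replicate 2) and 2.30 times for Hsph1 (1.74 without it).

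The J-domain partners differed from each other in WT and PBS. Dnajb1 (chromosome 8, 83608193 to 83612653, plus strand), which works with inducible Hsp70, was at 54.4, 57.0 and 44.7 CPM in WT, 37.9, 42.6 and 35.0 CPM in PBS, and 78.4, 105 and 56.5 CPM in SN-011. Dnaja1 (chromosome 4, 40722150 to 40737149, plus strand), which works mostly with constitutive Hsp70, was at 245, 251 and 243 CPM in WT, 211, 255 and 257 CPM in PBS, and 373, 748 and 268 CPM in SN-011. PBS lay wholly below WT for Dnajb1, whereas the 2 groups overlapped for Dnaja1, and in both genes each SN-011 library was above each PBS library. The ratio of SN-011 to PBS means was 2.08 for Dnajb1 and 1.92 for Dnaja1, or 1.75 and 1.33 without replicate 2.

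Hsp90aa1 (chromosome 12, 110690605 to 110702728, minus strand), the inducible cytosolic Hsp90, was at 409, 434 and 464 CPM in WT, 399, 439 and 490.0 CPM in PBS, and 499, 1047 and 406 CPM in SN-011. The 3 groups overlapped, and replicate 2 alone carried the difference, as the ratio of SN-011 to PBS means fell from 1.47 to 1.02 without it. Hspb1 (chromosome 5, 135887919 to 135889563, plus strand), the small heat shock protein Hsp25 that binds unfolded proteins without ATP and protects actin filaments, was at 28.0, 31.2 and 29.7 CPM in WT, 29.5, 23.1 and 26.1 CPM in PBS, and 33.9, 65.8 and 37.2 CPM in SN-011. All SN-011 libraries of Hspb1 were above all others, replicate 1 only by a small margin, and the ratio to PBS was 1.74, or 1.36 without replicate 2.

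The mitochondrial pair behaved differently outside replicate 2. Hspd1 (Hsp60, chromosome 1, 55077835 to 55088243, minus strand) was at 501, 467 and 594 CPM in WT, 528, 583 and 655 CPM in PBS, and 480, 860.5 and 515 CPM in SN-011. Hspe1 (Hsp10, chromosome 1, 55088132 to 55091307, plus strand), the lid of the same chamber, was at 111, 115 and 139 CPM in WT, 124, 133 and 169 CPM in PBS, and 136, 200 and 133 CPM in SN-011. SN-011 replicates 1 and 3 lay below every PBS library for Hspd1 and within the PBS range for Hspe1. The ratio of SN-011 to PBS means was 1.050 and 1.104, and 0.845 and 0.951 without replicate 2. Both genes share a head-to-head start with 112 exonic bases in common.

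Across the members, the SN-011 libraries were the most scattered of the 3 groups for 10 of 10 genes by coefficient of variation. The highest SN-011 library exceeded the lowest 6.76-fold for Hspa1a, 5.81-fold for Hspa1b, 2.79-fold for Dnaja1, 2.58-fold for Hsp90aa1, 2.29-fold for Hsph1 and 1.497- to 1.938-fold for the other 5. Replicate 2 was the highest of the 9 libraries for 10 of 10 members, replicate 1 was above every WT and PBS library for 8, and replicate 3 for 5. The shares over all genes were not computed for these counts or for the scatter. The choice of genes used these libraries, so nothing is read from them. The groups did not overlap, with SN-011 above PBS, for 7 of 10 members, beside 7.67% of all 16096 genes tested, and with SN-011 above WT for 5, beside 11.8% of 16284; the choice of genes used these libraries, so nothing is read from these shares. Replicate 2 is never the lowest SN-011 library of a member, so the count of 7 is as large without it. Scaling to the raw library total gave 7 members for both counts. Among the libraries without Y-linked reads, both SN-011 libraries were above both WT libraries for 6 members, beside 24.8% of 16284 genes. The ratios of means there were 2.40 for Hspa1b, 1.74 for Hspa1a, 1.39 for Hsph1 and 1.03 to 1.29 for the other 7. No PBS library lacks Y-linked reads, so among libraries with them SN-011 was represented by replicate 2 alone. The median log2 difference of the members was 0.90 against PBS and 0.62 against WT, beside medians of -0.0071 and -0.0042 over all genes tested. Without SN-011 replicate 2 these medians were 0.51 and 0.32, beside 0.010 and 0.0018. The PBS libraries enter the comparison with SN-011 and the one with WT.

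The comparison of PBS with WT sets Trex1-/- kidneys without the antagonist beside wild type. The labels name no injection for WT, whereas the PBS mice had 2 weeks of daily injections. Per the study's methods wild-type mice were bought while Trex1-/- mice were bred, and their ages may differ, so that genotype, injection, source and age cannot be told apart. Hspa1a and Hspa1b fell in the Trex1-/- kidneys given PBS. The change was -0.61 ± 0.12 (SE, log2) for Hspa1a (adjusted p = 0.0250, edgeR's quasi-likelihood test with Benjamini-Hochberg adjustment) and -0.56 ± 0.09 for Hspa1b (adjusted p = 0.00913, the same edgeR test). They are 2 of 10 members below the threshold of 0.05, both lower, while 1.76% of 16170 genes tested were called lower and 2.88% higher. The next largest differences did not pass in edgeR: Dnajb1 was at -0.44 (adjusted p = 0.0657), Hspa8 at -0.43 (adjusted p = 0.0706) and Hsph1 at -0.27 (adjusted p = 0.0964). DESeq2 called Dnajb1 (-0.44, adjusted p = 0.0195) and Hspa8 (-0.43, adjusted p = 0.00293) lower, and so did edgeR with no filter beyond 1 read (adjusted p = 0.0101 and 0.00533). For Hspb1, Dnaja1, Hsp90aa1, Hspd1 and Hspe1 the log2 differences were -0.18, -0.03, 0.02, 0.18 and 0.22, with adjusted p from 0.380 to 0.928 in edgeR. Thus the cytosolic Hsp70 genes, Hsph1 and Dnajb1 lay on the lower side and the mitochondrial pair, which passed in no fit, on the higher side of 0; with a term for Y-linked reads Hspd1 was at -0.013 and Hspe1 at 0.032. PBS was below WT without overlap for 5 of 10 members (12.3% of all genes tested) and above WT without overlap for 0 (13.2%). The members' median was -0.22, beside 0.0032 over all genes.

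The calls depended on which libraries entered. Hspa1a lost its call when any 1 of WT replicates 1 and 2 or PBS replicates 1, 2 and 3 was left out (adjusted p from 0.0711 to 0.1003 in edgeR), with log2 differences that stayed between -0.53 and -0.64, and Hspa1b lost its call without PBS replicate 2 (-0.55, adjusted p = 0.0517 in edgeR). Without WT replicate 3, the WT library with Y-linked reads, 5 members were called lower, namely Hspa1a, Hspa1b, Hsph1, Dnajb1 and Hspa8, beside 5.33% of 16561 genes. In that fit no WT library and every PBS library had Y-linked reads. A fit with a term for Y-linked reads compares PBS with WT replicate 3 alone, which is assumed to vary like the other libraries. In it 0 members were called, and the differences were -0.34 for Hspa1a (adjusted p = 0.241, edgeR) and -0.44 for Hspa1b (adjusted p = 0.101, edgeR). In a single edgeR fit of all 9 libraries, whose spread includes that of SN-011, 0 members were called as well, with differences of -0.61 for Hspa1a and -0.56 for Hspa1b. WT replicate 3 was the lowest WT library for Hspa1a and Hspa1b, and every PBS library lay below it for 6 of 10 members, beside 28.4% of 16170 genes. The share of Y-linked status in the difference cannot be told apart from that of genotype beyond these values, and in bulk tissue fewer cells of a type and less RNA per cell cannot be told apart.

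**Figure D2:**
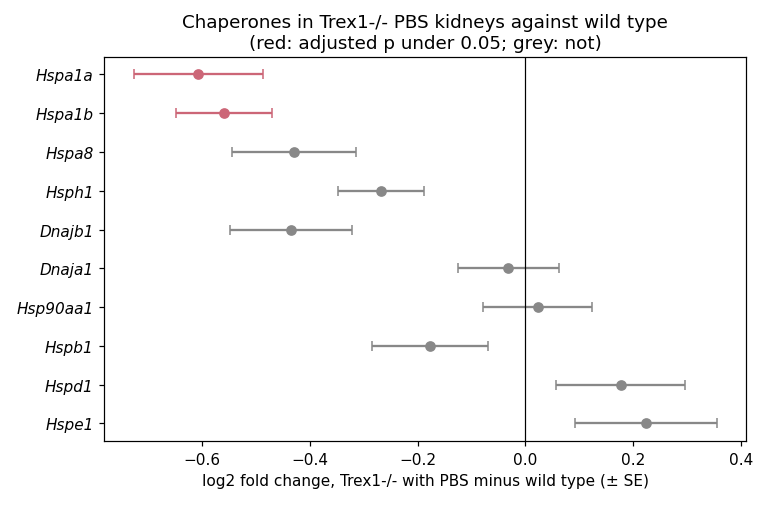
Log2 fold change of each member between Trex1-/- kidneys given PBS and WT kidneys (points) with its standard error (bars), from edgeR fits of 3 against 3 libraries; red marks an adjusted p under 0.05. Hspa1a at -0.61 and Hspa1b at -0.56 are red, and the mitochondrial Hspd1 and Hspe1 lie to the right of 0 at 0.18 and 0.22.

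Markers of other cell types varied beside the members in the same libraries. Summed macrophage markers were 131 to 145 CPM in WT, 198 to 217 CPM in PBS and 122, 182 and 152 CPM in SN-011 replicates 1, 2 and 3. Those of T and B cells were 7.18 to 10.7 CPM in WT, 23.8 to 30.3 CPM in PBS and 15.1, 40.05 and 27.7 CPM in SN-011. Replicate 2 was the highest SN-011 library for both sums, but replicate 3 exceeded replicate 1. In edgeR 3 of 5 macrophage markers rose in PBS against WT (Adgre1, C1qa and C1qb), as did Cd3g and Jchain of T and B cells and all 7 interferon-induced reference genes. Among markers of injured tubules Vcam1 rose and Spp1 fell there, and the proximal tubule glucose carrier Slc5a2 fell. Summed globin transcripts were 528 to 1703 CPM in WT, 297 to 641 CPM in PBS and 92.4 to 218 CPM in SN-011. Kap, an androgen-regulated protein of the proximal tubule, was at 648, 18780 and 3609 CPM in SN-011 replicates 1, 2 and 3; replicate 2 was highest as for the members, but replicate 3 exceeded replicate 1. Muscle, adrenal and neutrophil markers summed to at most 8.61 CPM in every library. The part of these cells in the chaperone levels was not tested.

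HSF1 is mainly controlled through its protein rather than its transcript level. Of the 6 listed genes for heat shock factors and their binding partners, 5 were tested, and edgeR on all libraries and DESeq2 each called 0 in any of the 3 comparisons. At an unadjusted p under 0.05, edgeR had 2 of the 5 in PBS against WT, beside 3328 of all 16170 genes tested, and 0 in the others. Without WT replicate 3, edgeR called Hsf2bp, a partner of HSF2, higher in PBS than in WT (0.73, adjusted p = 0.0404). Hsf1 was at 38.0, 42.7 and 36.3 CPM in WT, 43.8, 40.9 and 44.8 CPM in PBS, and 49.4, 43.8 and 39.2 CPM in SN-011. The 8 wider lists cover chaperones and co-chaperones, the heat shock factors and partners above, and Ddit3, a transcription factor in the endoplasmic reticulum list. They hold 84 genes that are no members, called other chaperones here for short, and 81 were tested. In PBS against WT, 1 of 81 was called higher and 0 lower by edgeR. This was Fkbp5, an Hsp90 co-chaperone that glucocorticoids induce, at 111, 74.6 and 75.3 CPM in WT, 247, 172 and 161 CPM in PBS, and 193, 391 and 128 CPM in SN-011. It rose by 1.15 (log2, adjusted p = 0.0136, edgeR), a call that was lost without WT replicate 2 and in the fit of all 9 libraries. Of the 81, 36 lay above 0 in that comparison, with a median of -0.024. Of the 14 J-domain proteins 10 were above 0, and of the 14 genes of the endoplasmic reticulum list, Ddit3 included, 11 were below 0. Hspa5, of the endoplasmic reticulum list, holds newly made secretory proteins and keeps the unfolded protein sensors silent. It was at -0.50 (adjusted p = 0.0571, edgeR), and DESeq2 called it lower (-0.51, adjusted p = 0.00174). EdgeR called it lower with no filter beyond 1 read (-0.51, adjusted p = 0.0018), with a block for replicate number (-0.49, adjusted p = 0.031) and without WT replicate 3 (-0.40, adjusted p = 0.0405). With the term for Y-linked reads it was at -0.71, and the fit of all 9 libraries did not call it.

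Between SN-011 and PBS, 0 of 81 other chaperones passed, and 0% of all 16086 genes that are no members did (smallest adjusted p = 0.287 in edgeR; 1560 of 16096 genes, members included, had an unadjusted p under 0.05, and 121 genes that are no members were called by DESeq2). Of the 81, 62 lay above 0, with a median log2 difference of 0.10, beside -0.0071 over all genes. Without SN-011 replicate 2, 55 lay above 0, with a median of 0.056. The highest was Chordc1, an Hsp90-binding protein, at 0.71 with adjusted p = 0.326 in edgeR, and it was the chaperone that DESeq2 called (0.73, adjusted p = 0.0109). Chordc1 was at 63.7, 71.1 and 64.9 CPM in WT, 57.7, 64.3 and 73.3 CPM in PBS, and 107, 129 and 84.9 CPM in SN-011, without overlap between SN-011 and the rest. Without SN-011 replicate 2, edgeR called 810 genes that are no members, among them 3 chaperones: Bag4 at 0.47 and Chordc1 at 0.56 were higher and Grpel2 at -0.46 was lower. The remaining SN-011 libraries lack the Y-linked reads that every PBS library has, so that treatment and Y-linked status cannot be told apart in these calls. A fit with a term for Y-linked reads compares SN-011 replicate 2 alone with PBS and takes its spread from the other libraries. It called 42 genes that are no members, among them Dnaja4, Manf, Dnajb9 and Hsp90ab1, and these calls describe that library. In SN-011 against WT, 0 of 81 passed in edgeR, and 0.264% of 16274 genes that are no members passed. At an unadjusted p under 0.05, edgeR had 10 of the 81 there, beside 2446 of all 16284 genes tested, members included. DESeq2 called 1 of the 81 there, Chordc1 (0.68, adjusted p = 0.00525), and edgeR with no filter on low counts called Chordc1 (0.66, adjusted p = 0.0257) and Fkbp5 (1.43, adjusted p = 0.0183).

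Several lists followed replicate 2 as the members did. The Hsp90 family and its co-chaperones summed to 2966 to 3277 CPM in WT and PBS and to 3434, 4991 and 3076 CPM in SN-011. Much of this was Hsp90ab1, the constitutive cytosolic Hsp90, at 1591, 2632 and 1412 CPM in SN-011 beside 1286 to 1502 CPM in the other libraries. All 8 subunits of TRiC, the cytosolic chaperonin that folds actin and tubulin, were above 0 in SN-011 against PBS, by at most 0.16 on the log2 scale, or 0.12 without SN-011 replicate 2. The 14 genes of the endoplasmic reticulum list summed to 2828, 3886 and 3023 CPM in SN-011 and to 2781 to 3723 CPM elsewhere, with replicate 2 highest. Bag3, an HSF1 target that links Hsp70 to autophagy, was at 74.7, 97.7 and 54.3 CPM in SN-011 and at 46.9 to 57.3 CPM elsewhere. The 8 other genes listed as small heat shock proteins summed to 216 to 264 CPM in SN-011 and to 217 to 333 CPM elsewhere. Most of this was Cryab, at 189 to 305 CPM per library, so the sum says little about the rest. Of the 8, only Hspb8 was highest in replicate 2, at 5.61, 10.4 and 5.46 CPM in SN-011 and 5.10 to 6.60 CPM elsewhere.

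**Figure D3:**
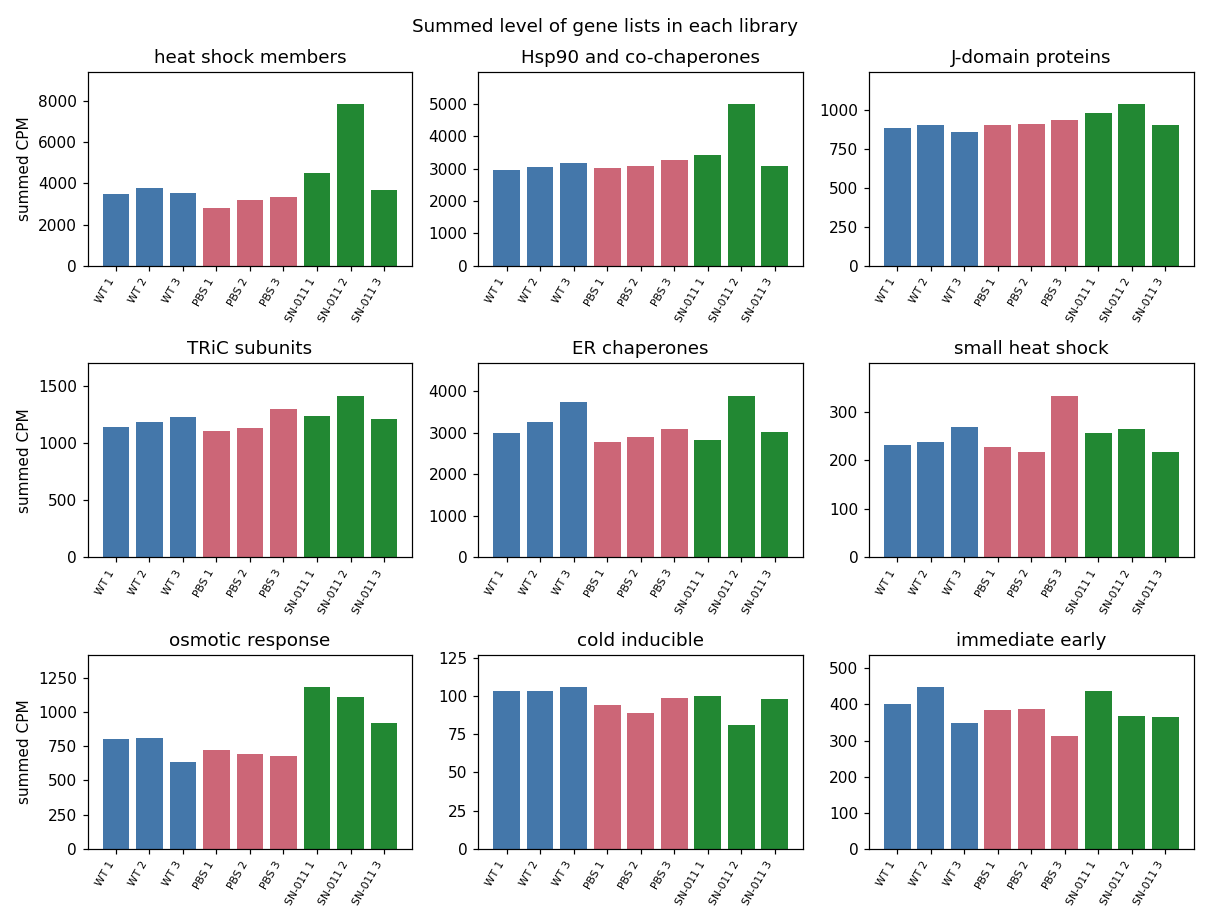
Summed CPM (vertical axes from 0) of 9 gene lists in each of the 9 libraries; blue is WT, red is PBS and green is SN-011. The members reach 7838 CPM in SN-011 replicate 2 and the Hsp90 list 4991 CPM there, whereas the osmotic list is at 918 to 1180 CPM in the SN-011 libraries, of which Slc5a3 makes up 563 to 803 CPM, and lower in the others.

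Genes of other stress responses gave mixed orders among the SN-011 libraries. Fosb, an immediate early transcription factor, was at 8.78, 2.90 and 0.594 CPM in SN-011 replicates 1, 2 and 3 and at 0.452 to 0.943 CPM elsewhere. Egr1 at 39.6, 12.6 and 19.2 CPM was also highest in replicate 1, unlike the members. Within SN-011, Fos, Jun, Junb, Ier3, Btg2 and Nr4a1 were highest in replicate 1 too. Atf3, Dusp1 and Zfp36 were highest in replicate 2, and Ier2 in replicate 3. Atf3 at 7.14, 10.1 and 2.32 CPM had the order of Hspa1a. Cirbp, which cold induces and heat lowers, was at 32.9, 23.3 and 38.4 CPM in SN-011 and at 36.4 to 46.3 CPM elsewhere, the reverse of the order for Hspa1a. Rbm3, the other cold-inducible gene listed, was at 67.4, 57.5 and 59.5 CPM in SN-011 and does not show that order. Its SN-011 libraries lay above PBS at 49.7 to 52.7 CPM and overlapped WT at 59.5 to 64.4 CPM. Neither gene was called in SN-011 against PBS (adjusted p = 0.510 for Cirbp and 0.455 for Rbm3, edgeR). Slc5a3, the inositol carrier that hypertonic stress induces, was at 721, 803 and 563 CPM in SN-011 and at 268 to 432 CPM elsewhere, without overlap; its adjusted p against PBS was 0.287 in edgeR. The other 4 osmotic genes summed to 459.6, 302 and 355 CPM in SN-011, to 366 to 376 CPM in WT and to 300.5 to 335 CPM in PBS, so that without Slc5a3 the SN-011 range took in that of WT and overlapped that of PBS. Hmox1, the haem-degrading enzyme that oxidative stress induces, was at 29.1, 68.2 and 28.7 CPM in SN-011 and at 19.9 to 34.7 CPM elsewhere, so that only replicate 2 was high. The 7 oxidative stress and metal genes together summed to 784, 1178 and 782 CPM in SN-011 and to 698 to 958 CPM elsewhere. This sum was highest in replicate 2, as for the members. Of the 12 immediate early, 2 cold-inducible and 7 oxidative stress genes 0 were called in any comparison by edgeR, and of the 5 osmotic genes Slc6a12 (-1.19) and Slc14a2 (-0.52) fell in PBS against WT. Their part in the chaperone levels was not tested.

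The members were correlated across the 9 libraries, and less so without SN-011 replicate 2. Over the 28 pairs among the 8 cytosolic and nuclear members, Pearson's r of log2 CPM ranged from 0.719 to 0.992 with a median of 0.920. A mitochondrial member with 1 of the other 8 gave 0.275 to 0.847 over 16 pairs (median 0.546), and Hspd1 with Hspe1 gave 0.911. Over the 8 libraries without SN-011 replicate 2, the first range was -0.109 to 0.987 (median 0.752), the second -0.795 to 0.683 (median -0.277), and Hspd1 with Hspe1 gave 0.777. The genes most like the mean standardised level of the members, among 14832 with at least 1 CPM on average, were Gm15542 (r = 0.982), Cltc (0.970), Hsp90ab1 (0.968), Chm (0.967), Cacybp (0.966), Ets2 (0.954), Stip1 (0.953) and Ahsa2 (0.953). These values are a description over 9 libraries, and without SN-011 replicate 2 those of the same 8 genes were 0.742 to 0.915. Gm15542 is a processed pseudogene that shares 150-base windows with Dnaja1, so that reads of this member cannot be told apart from its own there. It was at 6.27 to 7.40 CPM in WT and PBS and at 11.2, 21.2 and 7.84 CPM in SN-011. Cltc encodes the clathrin heavy chain and moved little, from 351 to 372 CPM in WT and PBS to 375, 448 and 368 CPM in SN-011. Hsp90ab1, the adaptor Stip1 that links Hsp70 to Hsp90, and Ahsa2, a relative of the Hsp90 ATPase activator, belong to the Hsp90 system. Ets2 is a transcription factor, Chm escorts Rab proteins for lipid attachment, and Cacybp binds the ubiquitin ligase Siah. The lowest were Frs3 (-0.975), Hoxa11 (-0.969) and Kif24 (-0.967), or -0.871 to -0.923 without SN-011 replicate 2; Frs3, an adaptor of growth factor receptors, was at 14.3, 11.4 and 14.96 CPM in SN-011 and at 16.1 to 17.8 CPM elsewhere.

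**Figure D4:**
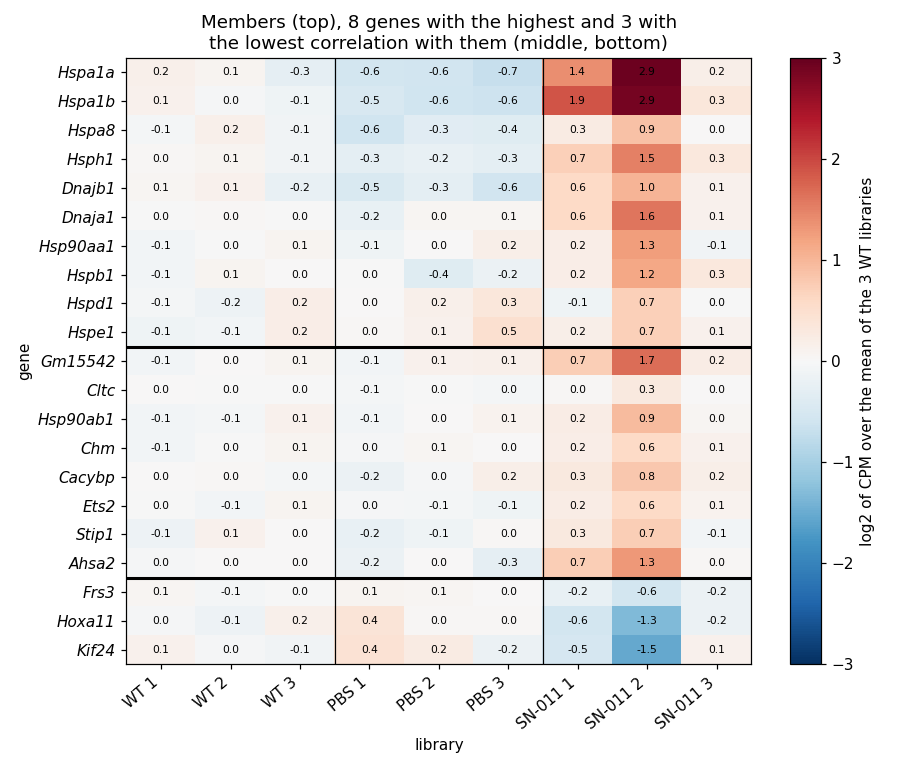
Log2 of CPM over the mean of the 3 WT libraries (colour and number in each cell) for the 10 members (top), the 8 genes most like them (middle) and the 3 least like them (bottom), in columns of 9 libraries. SN-011 replicate 2 is the darkest red column for the members, replicate 3 is near WT for most of them, and Frs3, Hoxa11 and Kif24 are blue in replicate 2.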

How the data were processed

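The 9 mouse kidney libraries (3 WT, 3 Trex1-/- with PBS, 3 Trex1-/- with SN-011) were sequenced as paired reads. The authors trimmed reads with Trimmomatic, aligned them with hisat2 and counted uniquely mapped pairs per Ensembl gene with featureCounts; the submitters' processing notes name mm10, and versions, annotation and strand setting are not given in the sources used here. The deposited values are raw counts, 1 file per library. Symbols and positions came from GENCODE vM21 (GRCm38), which matched 54495 of 54532 gene IDs. Promoters came from RefSeq.

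Counts were tested in R 4.3.3 with edgeR 4.0.16, using TMM scaling, filterByExpr (at least 10 counts, 15 in total), the quasi-likelihood F test on the 6 libraries of a comparison and Benjamini-Hochberg adjustment over all genes tested, with calls at 0.05. SE was derived from F. CPM used TMM over 9 libraries, and correlations used log2 CPM with a prior count of 2. The steps were tested on simulated data. The members and lists were chosen with earlier results of these data known. Named were all members, at most 4 called genes per list and comparison, and the 8 genes most and 3 least like the members. Hspa5, Chordc1, Bag3, Hsf1, Kap, Cirbp, Rbm3, Hsf2bp, Slc5a3, Hmox1, Cryab, Hspb8, Ddit3, Fosb, Egr1, Atf3 and the other immediate early genes were chosen after their values were seen. Alternatives were DESeq2 1.42.0 (Wald test or size factors), no filter beyond 1 read, all 9 libraries, a replicate block, a term for Y-linked reads, raw library totals, Hspa1a and Hspa1b summed, and leaving out each library; medians and correlations without SN-011 replicate 2 were added after seeing the data. No depth limit applied to members, each with at least 349 counts per library.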

Additional observations from a re-analysis of the deposited data

How the results depend on the processing

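In PBS against WT, 751 genes, 1 chaperone outside the members and 2 members were called. These numbers were 1665, 6 and 4 with no filter beyond 1 read, 1218, 6 and 4 with DESeq2, 313, 0 and 0 with all 9 libraries, 333, 4 and 0 with the Y-linked term, and 704, 4 and 3 with the replicate block. Leaving out 1 library gave 297 to 2018 genes, 0 to 5 other chaperones (Hsf2bp among the 5) and 0 to 5 members. For SN-011 against PBS, genes that are no members went from 0 to 27 with no filter, 121 with DESeq2, 5 with the replicate block and 42 with the Y-linked term, chaperones to 1 with DESeq2 and 4 with the Y-linked term, and leaving out 1 library gave 0 to 810 genes and 0 to 3 chaperones. For SN-011 against WT, 43 genes became 288, 516, 213, 24 and 216 with no filter, DESeq2, all 9 libraries, the replicate block and the Y-linked term, chaperones became 2 and 1 with no filter and DESeq2, and leaving out 1 library gave 2 to 147 genes. The cause was not tested. Whether replicate numbers pair the libraries cannot be settled with 3 libraries per group, and the main fits used no pairing. Same-numbered deviations correlated at 0.13, -0.01 and 0.10 between PBS and WT, and at 0.24, -0.29 and -0.14 between SN-011 and WT. Between SN-011 and PBS they correlated at 0.20, 0.24 and 0.098. Each of these was above the values for unlike numbers, and the third missed the limit of 0.1. With the replicate block Dnajb1 was also called.

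Of 12 alternatives for PBS against WT, Hspa1a kept its call in 5 and Hspa1b in 9. The sign turned with the Y-linked term for Hsp90aa1 (-0.067) and Hspd1 (-0.013), and without 1 library for Hsp90aa1 (-0.06 without PBS replicate 3 to 0.088 without PBS replicate 1; also -0.027 without WT replicate 1) and Dnaja1 (-0.084 without PBS replicate 3 to 0.050 without PBS replicate 1). The difference of mean log2 CPM between SN-011 and PBS turned for Hspd1 without PBS replicate 1 (-0.050) and without SN-011 replicate 2 (-0.24 to 0.18 over all left-out libraries), and for Hspe1 without SN-011 replicate 2 (-0.059 to 0.26).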
